A study of Mus musculus with 4 samples.

Results

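The laminin chain genes were taken from a table of m6A-seq regions as every row whose gene symbol begins with Lama, Lamb or Lamc and a digit. The rule found 32 of the 6697 distinct regions in the table, which lists 3882 genes, and 30 of them, under 5 genes, are described here. Lamc1 held 18 regions, Lama1 held 7, Lama5 held 3, and Lama2 and Lama3 held 1 each. Lama4, Lamb1, Lamb2 and Lamb3 had no listed region, so no beta chain was represented. None of the 30 regions overlapped another or was also listed under a second gene.

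Laminins are large secreted glycoproteins, each built from an alpha, a beta and a gamma chain, and they form the first layer of a basement membrane, the sheet of matrix beneath epithelia. The gamma 1 chain, from Lamc1, is a part of most laminins, and the alpha 1 chain, from Lama1, is typical of the early embryo, where primitive endoderm and its descendants secrete it in large amounts. N6-methyladenosine (m6A) is a methyl mark on adenosines inside messenger RNA, found mostly in coding sequence and 3'UTRs, and it affects the stability and translation of the transcript.

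The study asked how m6A-modified mRNA differs between wild-type mouse embryonic stem cells and cells labelled as a Gsk-3 double knockout, which lack the kinases Gsk-3α and Gsk-3β. Both genotypes carry the strain label E14K, were grown without feeder cells on gelatin in medium with serum, and were deprived of LIF, a cytokine that keeps such cells in self-renewal, for 14 days before RNA was taken. For each genotype the labels give 1 library of mRNA captured with an m6A antibody and 1 of total input mRNA. The labels do not say whether either line was a single clone. The table held 1 count per region for each genotype and 0 input columns, and it was matched to the antibody libraries because only their titles name the assay. With 1 library per genotype there was no replicate check and no p-value was computed. Every comparison below is between these libraries, and each 95% interval covers counting error only.

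Over all 6697 regions the counts summed to 573971 in wild type and 27072 in the double knockout. The region with the smallest difference was 2.91-fold lower in the double knockout, and in 0 regions did the double-knockout count reach that of wild type, so the table holds 1 direction and a lower count in the knockout is no finding about laminins. Gsk3a was not listed and Gsk3b was listed only through an upstream region, which cannot check the deletion. Of 7 stem cell markers 3 were listed. Pou5f1 had 55 against 6, Esrrb 146 against 7 in an intron, and Lin28a 19 against 0 in an upstream region. Of 7 extraembryonic endoderm markers 3 were listed (Gata6, 59 against 8, Sox17, 63 against 2, and Sox7, 87 against 7). Nanog, Sox2, Afp and Ttr were not. Of 4 neural markers 2 were listed (Nes, 1110 against 10, and Tubb3, 37 against 2), of 4 mesoderm markers 3 (T, 30 against 1, Twist1, 89 against 0, and Tbx20, 99 against 0), and of 4 fibroblast markers Col1a1 (108 against 0). Counts are given as wild type against double knockout, and the part of these cell types in the laminin values was not tested. The list is not a measure of expression, so absence from it does not show that a marker was missing.

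The laminin counts were concentrated in 1 gene. Lamc1 gave 2760 of the 3675 wild-type reads in the 30 laminin regions (75.1%, exact Clopper-Pearson 73.7 to 76.5) and 290 of the 366 double-knockout reads (79.2%, 74.7 to 83.3). Lama1 gave 629 (17.1%) and 73 (19.9%). Lama5 gave 241 wild-type reads (6.56%, 5.78 to 7.41) but 3 double-knockout reads (0.820%, 0.169 to 2.38), a smaller part of the knockout's laminin reads than of the wild type's, with intervals that did not overlap. Only 1 of the 3882 genes had more listed regions than Lamc1, 5 had a larger wild-type sum and 5 a larger double-knockout sum.

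Fold differences divide wild-type reads by double-knockout reads and multiply by the authors' constant of 0.825. Where the double knockout had 0 reads, the fold is a minimum, computed as if it had 3. Sums describe the listed regions of a gene and not its whole transcript. Summed over its regions, Lamc1 was 7.85-fold lower in the double knockout (6.95 to 8.89) and Lama1 was 7.11-fold lower (5.57 to 9.18). Both were smaller differences than that of the summed counts of all other regions (17.6-fold, 17.4 to 17.8). The ratio of the Lamc1 fold to that fold was 0.446 (0.394 to 0.505), and the ratio for Lama1 was 0.403 (0.316 to 0.522). All regions of Lamc1 and Lama1 overlap coding sequence or a UTR, which many other regions do not. Over all regions that do, laminins included, the summed fold was 14.8 (14.6 to 15.0), nearer to theirs. Over those that cross a coding exon and intron border it was 16.4 (15.8 to 17.0). Between Lamc1 and Lama1 the ratio was 1.10 (0.830 to 1.45), an interval that holds 1 and leaves room for a difference in either direction. In bulk RNA, fewer cells of a type and less RNA per cell cannot be told apart, and without input counts neither can fewer transcripts and fewer methylated transcripts.

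**Figure D1:**
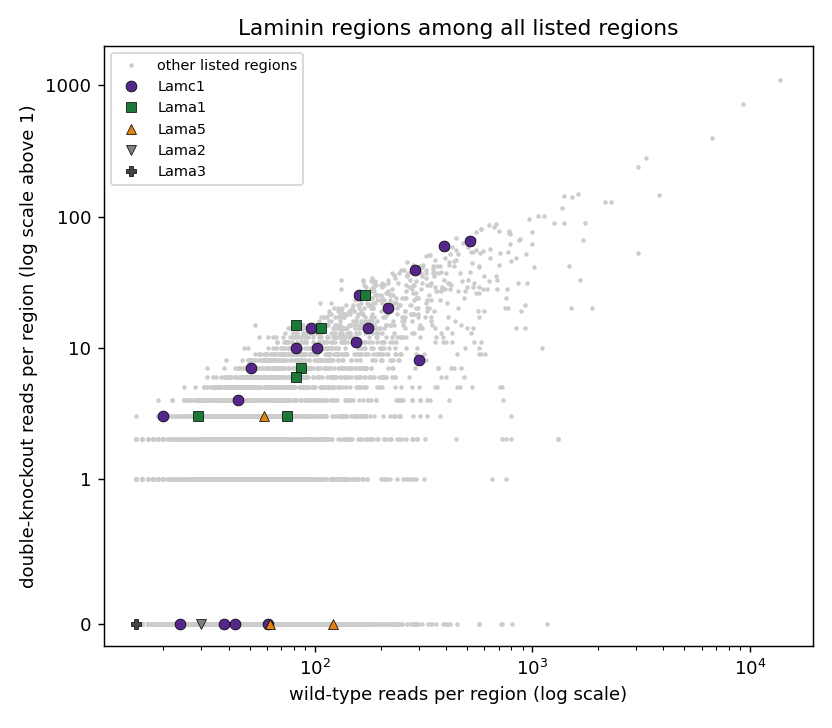
Wild-type reads (x axis, log scale) against double-knockout reads (y axis, log scale above 1) for each listed region, 1 point per region, with the 5 laminin genes marked. Most Lamc1 and Lama1 points lie along the upper edge of the cloud, where the double-knockout count is high for its wild-type count, and 4 of the 5 points of the other 3 genes lie at 0, as do 50.5% of all regions.

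The regions of Lamc1 lay on chromosome 1, where the gene runs from 153218922 to 153332786 in RefSeq's GRCm38.p6 annotation, and are numbered here from 5' to 3'. Of the 18, 13 crossed from a coding exon into an intron, 2 lay within a coding exon and 3 within the 3'UTR. Their wild-type counts ran from 20 to 515 with a median of 99, and their double-knockout counts from 0 to 65 with a median of 10.

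Region 1 (153332255 to 153332431), centred 443 bases from the transcription start in a coding exon, had 96 wild-type reads and 14 double-knockout reads, a 5.66-fold difference (3.21 to 10.7). Region 2 (153332071 to 153332221), which begins 33 bases further into the gene and crosses into the intron, had 43 and 0, at least 11.8-fold lower. These neighbours sit on either side of the gene's median value, yet the pair together had 139 reads against 14 (8.19-fold, 4.72 to 15.4), close to the whole gene. No region was then listed for 81089 bases between centres. Region 3 (153250971 to 153251143) had 61 against 0, at least 16.8-fold lower, and region 4 (153249790 to 153249981) had 38 against 0, at least 10.4-fold lower. In region 3 the fold seen in the rest of the gene would have given 6.55 double-knockout reads, above the 3.69 that the interval of a count of 0 allows.

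Region 5 (153246955 to 153247260), the longest at 306 bases, had 287 reads against 39, a 6.07-fold difference (4.33 to 8.71). Region 6 (153242545 to 153242783) had 102 against 10 (8.41-fold, 4.39 to 18.1). Its neighbour region 7 (153241797 to 153242030), with a centre 751 bases downstream, had 300 against 8, a 30.9-fold difference (15.5 to 72.3). Region 7 therefore ranked 3 in wild-type count among the 18 and 11 in double-knockout count. The rest of the gene would have given it 34.4 double-knockout reads, and its fold was 4.30 times that of the rest (2.12 to 10.2). Without it the fold of the summed gene was 7.19 in place of 7.85.

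Region 8 (153240239 to 153240444) had 82 against 10 (6.76-fold) and region 9 (153239251 to 153239429) had 51 against 7 (6.01-fold). Region 10 (153234418 to 153234588) had 391 against 60, a 5.37-fold difference (4.09 to 7.18). This was the 1 region of Lamc1 with a fold below that of the rest by an interval without 1, at a ratio of 0.633 (0.464 to 0.873). Region 11 (153230637 to 153230799) had 24 against 0, at least 6.60-fold lower, where the rest of the gene would have given 2.54 reads, so this 0 was within counting error. Region 12 (153227458 to 153227676) had 216 against 20 (8.91-fold, 5.63 to 14.9).

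The deepest of the 18 regions was the last one before the 3'UTR. Region 13 (153226308 to 153226459) had 159 against 25 (5.25-fold, 3.43 to 8.35) and region 14 (153223592 to 153223754) had 155 against 11 (11.6-fold, 6.32 to 23.8). Region 15 (153221551 to 153221726), within a coding exon, had the highest count of both libraries, 515 and 65 (6.53-fold). At 2.93 wild-type reads per base by the authors' deposited density, it was denser than 99.5% of all regions, against a median of 0.485 over the 18 and of 0.219 over the whole table. In the 3'UTR, region 16 (153220978 to 153221132) had 20 against 3, region 17 (153219801 to 153219973) had 176 against 14 and region 18 (153219402 to 153219581) had 44 against 4. The 3 together were 9.43-fold lower (6.03 to 15.5), and the 15 that overlap coding sequence were 7.73-fold lower (6.81 to 8.79). The ratio of these folds was 1.22 (0.764 to 2.04), so a difference between 3'UTR and coding regions of Lamc1 was not detectable at this depth.

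**Figure D2:**
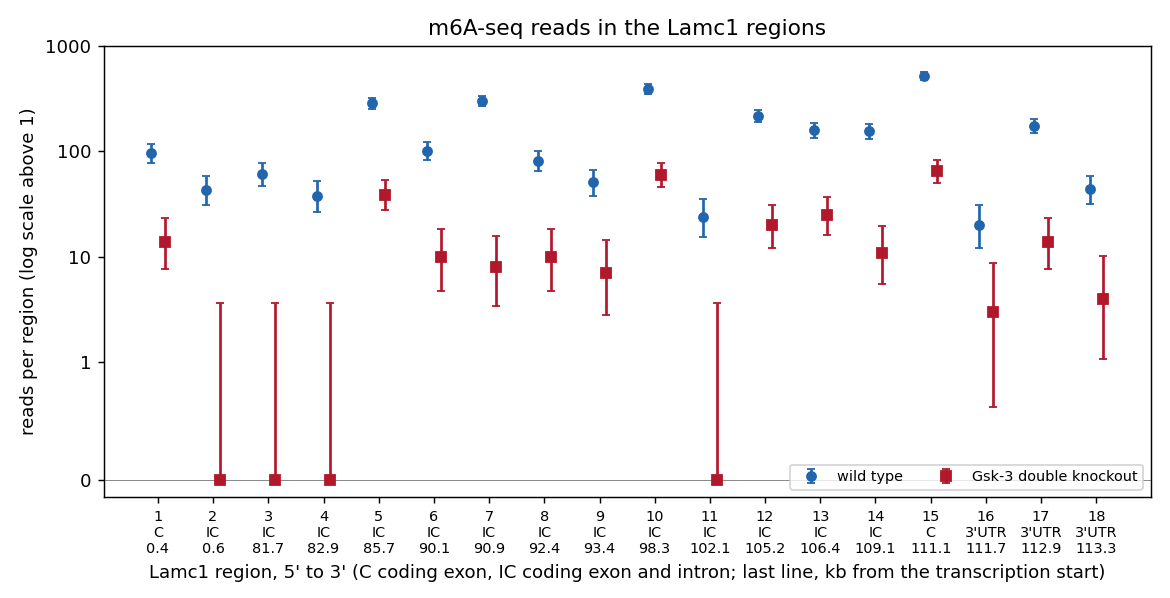
Reads in each of the 18 Lamc1 regions (y axis, log scale above 1) from 5' to 3' (x axis), for wild type (blue circles) and double knockout (red squares), with exact Poisson 95% intervals. The highest counts of both libraries are at region 15 (515 and 65), the double-knockout counts at regions 2, 3, 4 and 11 are 0, and region 7 combines 300 wild-type reads with 8.

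The profile along Lamc1 was largely shared by the libraries. Over the 18 regions the correlation of the 2 counts was 0.906 (Pearson) and 0.865 (Spearman), and without region 7 it was 0.971 and 0.928 over 17. These regions share a gene and a pair of libraries, so the values only describe the profile. Region 7 was picked after its values were seen, so the higher correlation without it adds no evidence. Set against the rest of the gene, the fold was larger in 4 regions (2, 3, 4 and 7), smaller in 1 (region 10) and within counting error in 13. The lower ends of the ratio for regions 2 and 4 were near 1 (1.18 and 1.04). The intervals were not adjusted for the number of regions compared.

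The 7 regions of Lama1 lay on chromosome 17, where the gene runs from 67697127 to 67822645, and all crossed from a coding exon into an intron. Each of them had double-knockout reads, and wild-type counts ran from 29 to 170 with a median of 82. Region 5 (67768315 to 67768482) was the deepest, with 170 reads against 25, a 5.61-fold difference (3.67 to 8.91). Region 2 (67763753 to 67763920) had 106 against 14 (6.24-fold, 3.56 to 11.8).

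Of the other Lama1 regions, region 1 (67756694 to 67756868) had 29 against 3, the lowest wild-type count of the gene. Region 3 (67764611 to 67764828) had 86 against 7 (10.1-fold, 4.71 to 26.0) and region 4 (67766938 to 67767097) had 82 against 6 (11.3-fold, 4.96 to 31.6). Towards the 3' end the regions are further apart, and the last 2 were the extremes of the gene. Region 6 (67798968 to 67799120) had 74 against 3, a 20.3-fold difference (6.70 to 101). Region 7 (67809209 to 67809400) had 82 against 15, a 4.51-fold difference (2.58 to 8.42), the smallest of the 25 regions of Lamc1 and Lama1. For each of the 7, the interval of the ratio to the rest of the gene held 1, so no Lama1 region stood apart from the others beyond counting error. Region 6 came close to doing so, at a ratio of 3.11 (0.979 to 15.8). The 2 counts of Lama1 had a correlation of 0.884 (Pearson) over the 7 regions.

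Lama5, whose alpha 5 chain is widespread in epithelial basement membranes, lay on chromosome 2. Its region 1 (180202119 to 180202336) had 121 reads against 0, at least 33.3-fold lower, and region 2 (180193694 to 180193845), within a coding exon, had 62 against 0, at least 17.0-fold lower. Region 3 (180184311 to 180184540) had 58 against 3, a 15.9-fold difference (5.19 to 79.6). It held all 3 double-knockout reads of the gene, and its fold was below that of the rest of Lama5 (ratio 0, 0 to 0.793). That ratio rests on these 3 reads, and its interval was not adjusted for the number of regions compared. The ratio intervals of regions 1 and 2 held 1. Summed, Lama5 was 66.3-fold lower (22.4 to 324), which was 8.44 times the fold of Lamc1 (2.82 to 41.5) and 9.31 times that of Lama1 (3.02 to 46.6). With 3 double-knockout reads in all, the size of the Lama5 fold is poorly fixed, but its interval did not overlap those of Lamc1 and Lama1.

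Lama2, whose alpha 2 chain is typical of muscle and nerve, had 30 against 0 on chromosome 10 in a region (27022924 to 27023135) inside an intron, at least 8.25-fold lower. Lama3, whose alpha 3 chain is typical of skin and other epithelia, had 15 against 0 in an intronic region of chromosome 18, at least 4.12-fold lower. Its 15 reads equal the lowest wild-type count of the table. Together, Lama2, Lama3 and Lama5 had 286 reads against 3 (78.6-fold, 26.6 to 384), and the ratio of that fold to the fold of Lamc1 and Lama1 together was 10.2 (3.43 to 50.05). Lama5 gave 241 of the 286 reads and all 3 double-knockout reads, so the pooled fold does not show how Lama2 or Lama3 differ. Their minimum folds, 8.25 and 4.12, do not exceed the interval of the Lamc1 fold (6.95 to 8.89).

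**Figure D3:**
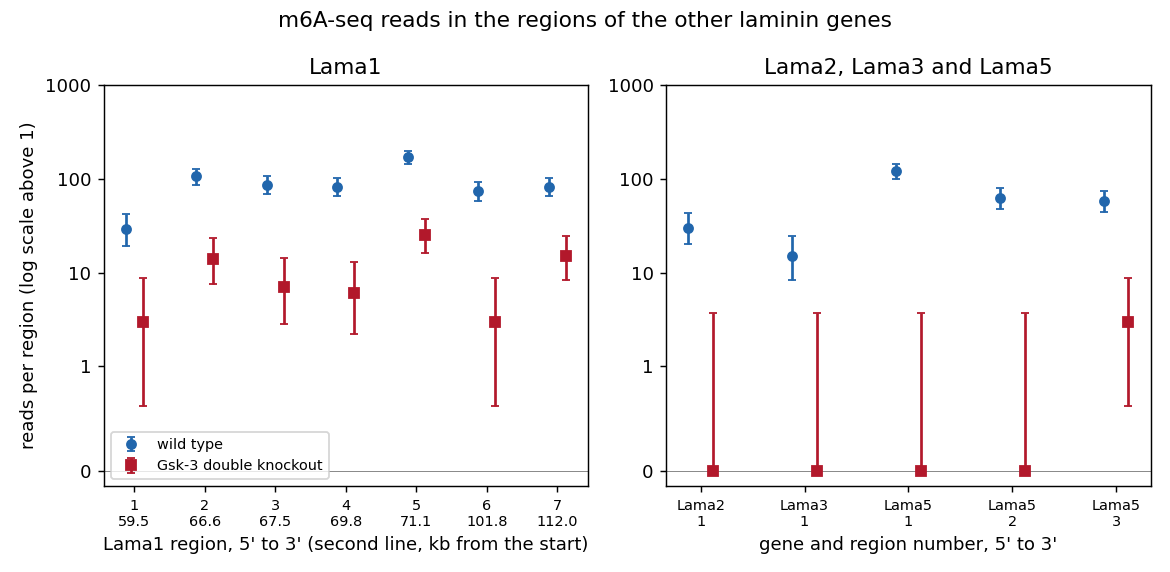
Reads per region (y axis, log scale above 1) with exact Poisson 95% intervals for the 7 regions of Lama1 (left) and the 5 of Lama2, Lama3 and Lama5 (right), numbered from 5' to 3'. All 7 Lama1 regions have double-knockout reads (3 to 25), and 4 of the 5 on the right have none.

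Counted over regions, 12 of the 30 laminin regions were at least 10-fold lower, against 52.5% of all regions, and 8 of the 30 had no double-knockout read, against 50.5%. The counts per gene were 6 of 18 at least 10-fold lower in Lamc1, 3 of 7 in Lama1, 3 of 3 in Lama5 and 0 in Lama2 and Lama3. A region without double-knockout reads needs 37 wild-type reads to reach 10-fold at the floor, and 3 of the 8 had fewer. On the log2 scale, with 0.5 added to both counts, the median of double knockout relative to wild type was -3.19 over the 30 laminin regions and -4.93 over all regions. That gap is widened by the regions at 0, and the median fold, counting such regions at their minimum, was 8.33 over the 30 and 10.4 over all regions. By log2 value, 23 of the 30 lay above the all-region median of -4.93, on the side of a smaller difference. These were 14 of 18 in Lamc1, all 7 in Lama1 and 2 of 5 in the other genes. By fold, 13 of the 18 Lamc1 regions lay under the all-region median of 10.4. Lamc1 and Lama1 hold 25 of the 30 regions, so these medians mostly describe those genes. Taking each gene by its region with the highest mean count, the median log2 of the 5 genes was -4.68, against -4.85 over all 3882 genes. Their median fold with zeros at the minimum was 6.53, against 11.1. Of the 5, 3 had no double-knockout read in that region, against 46.2% of all genes.

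**Figure D4:**
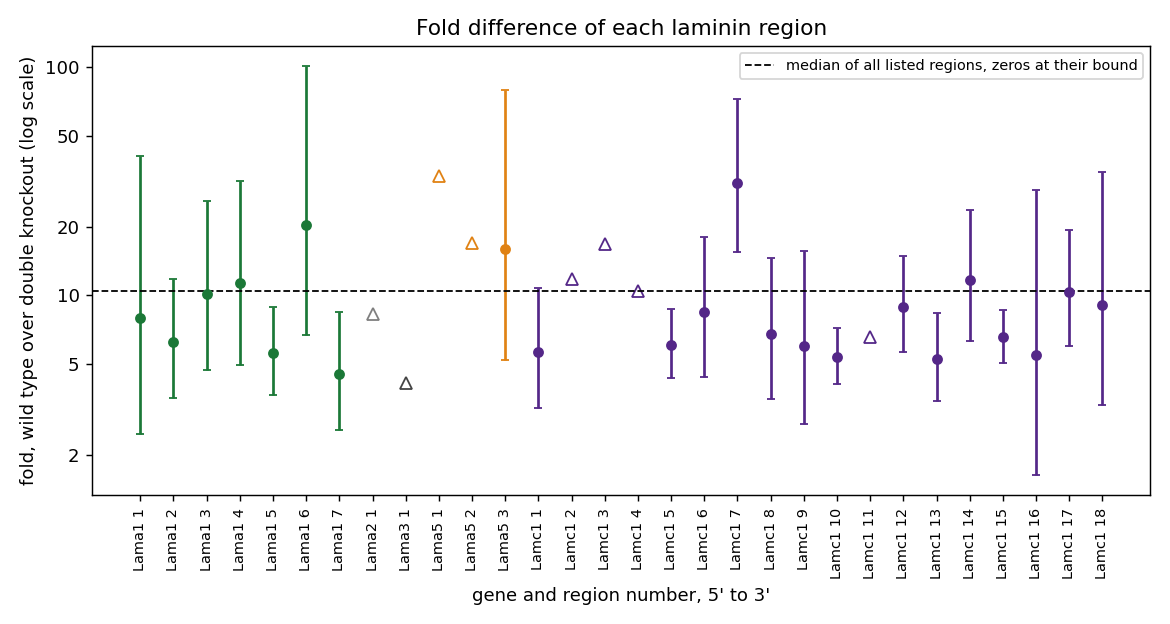
Fold of wild type over double knockout (y axis, log scale) for each of the 30 laminin regions (x axis, by gene and region number). Circles have exact 95% intervals, open triangles are lower bounds at a double-knockout count of 0, and the dashed line is the median of all listed regions (10.4). Lamc1 and Lama1 lie mostly below the line, with region 7 of Lamc1 (30.9) and region 6 of Lama1 (20.3) above it, and all 3 Lama5 regions lie above it.

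Read number and annotation also move with the fold, so the laminin regions were set beside regions of like count. Among regions with 120 or more wild-type reads, the 9 of Lamc1 and Lama1 had a median fold of 6.53, against 17.9 over all 1012 such regions and 17.2 over the 96 that cross a coding exon and intron border. None of the 9 lacked double-knockout reads, against 15.7% and 20.8%. Among regions with 60 to 119 wild-type reads, the 9 of Lamc1 and Lama1 had a median fold of 8.41, against 18.8 and 17.8, and 1 of the 9 lacked double-knockout reads, against 34.5% and 23.5%. At 30 to 59 reads the 4 regions of Lamc1 and Lama1 had a median fold of 9.76, against 11.5 in both comparison sets, and at 15 to 29 reads the 3 regions had 6.60, against 6.32 over all regions. In these shallower bands the medians rest largely on counts of 0 set at the floor, since 52.8% and 75.7% of all regions there had no double-knockout read. The fold of summed counts, which needs no floor, was smaller in Lamc1 and Lama1 than over all regions in each band. It was 7.32 against 14.7 at 120 or more reads, 8.05 against 18.9 at 60 to 119, 13.2 against 24.6 at 30 to 59 and 10.0 against 40.0 at 15 to 29. Over regions that cross a coding exon and intron border it was 13.8, 15.1, 21.3 and 24.5, in the same order. No interval was computed for these folds, and the 13.2 and 10.0 rest on 11 and 6 double-knockout reads. In shape, 22 of the 30 laminin regions (73.3%) crossed a coding exon and intron border, against 14.9% of all regions, and 2 lay in introns only.

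The likeness of other genes was measured as the distance between log2 ratios of summed counts, over the 2 libraries, among the 142 genes with at least 5 regions. Their median fold was 16.8, and 13 of them had a smaller fold than Lamc1 and 7 a smaller fold than Lama1. Closest to Lamc1 were the phosphatase gene Ptpn14 (461 against 48, 7.92-fold), Trim71, an RNA-binding ubiquitin ligase gene (1273 against 137, 7.66-fold), and Lzts2 (800 against 87, 7.58-fold). Closest to Lama1 were 1110012J17Rik (1088 against 128, 7.01-fold), the transcription factor gene Zfhx3 (823 against 94, 7.22-fold) and the non-muscle myosin gene Myh9 (876 against 100, 7.23-fold).

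Laminin networks in a basement membrane are joined to a collagen IV network by nidogens and heparan sulfate proteoglycans. Of 24 genes of such partners 14 were listed, each described by its region with the highest mean count. Their median log2 value was -4.24, against -4.85 over all 3882 genes, and their median fold with zeros at the bound was 11.4, against 11.1. Of the 14, 8 were at least 10-fold lower, against 55.6% of all genes, and 4 had no double-knockout read, against 46.2%. The network collagen genes Col4a1 (283 against 43, 5.43-fold, 3.93 to 7.67) and Col4a2 (203 against 31, 5.40-fold, 3.69 to 8.16) had folds close to those of Lama1 and Lamc1. So did Hspg2, the proteoglycan perlecan, with 35 against 5, though its interval was wide (5.77-fold, 2.25 to 18.9). Sparc, a collagen-binding glycoprotein gene, had 103 against 10 (8.50-fold).

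Several other partners of the same structure had larger folds, though not all intervals were apart from those above. The intervals of Pxdn and Fbln2 overlapped that of Col4a1, and that of Frem2 overlapped those of Col4a2, Lama1 and Lamc1. Those of Nid1, Frem2, Pxdn and Fbln2 overlapped the wide interval of Hspg2. The linker gene Nid1 had 65 against 1 (53.6-fold, 9.29 to 2150) and, over its 3 regions, 131 against 5 (21.6-fold). Col18a1, a collagen of vascular and epithelial basement membranes, had 241 against 4 (49.7-fold, 19.2 to 184). Agrn, the proteoglycan agrin, had 55 against 0 (at least 15.1-fold). The peroxidase gene Pxdn, which cross-links collagen IV, had 59 against 2 (24.3-fold, 6.44 to 206). Frem2, a matrix protein gene of embryonic epithelia, had 99 against 4 (20.4-fold, 7.73 to 76.4). Fbln2 had 76 against 5 (12.5-fold, 5.14 to 39.7) and the laminin-related gene Ntn4 45 against 0 in an intron (at least 12.4-fold). Col15a1, Col4a5 and Col4a6 were listed through introns only, with 38 against 0, 20 against 2 and 19 against 0.

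Cells bind laminin through integrins, dystroglycan and a few other surface proteins, and 7 of 13 such receptor genes were listed, with a median log2 value of -3.52. Their median fold with zeros at the bound was 9.54, against 11.1 over all genes. Of the 7, 3 were at least 10-fold lower, against 55.6% of all genes, and 1 had no double-knockout read, against 46.2%. Itga3, an integrin alpha chain gene, had the most reads, 598 against 35 in its 3'UTR (14.1-fold, 10.0 to 20.4). Dag1, the dystroglycan gene, had 230 against 22 in a coding exon (8.62-fold, 5.56 to 14.0). Itga6 had 81 against 7 (9.54-fold) and Cd151, a tetraspanin that associates with laminin-binding integrins, 68 against 9 (6.23-fold, 3.10 to 14.2). Itga1 had 62 against 4 and Itga2 20 against 0, both in introns, and Bcam, a receptor for the alpha 5 chain, had 22 against 1. Itgb1, the shared beta subunit of most of these integrins, and Itgb4 were not listed.

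Of 14 genes for the folding, modification and secretion of matrix proteins 7 were listed, with a median log2 value of -4.35. By log2 value that is a smaller difference than over all genes (-4.85). Their median fold with zeros at the bound was larger, 16.5 against 11.1. Of the 7, 6 were at least 10-fold lower, against 55.6% of all genes, and 2 had no double-knockout read, against 46.2%. Mia3, which helps load bulky matrix cargo for export, had 106 against 3 (29.1-fold, 9.70 to 144), and the lysyl hydroxylase genes Plod3 and Plod2 had 111 against 4 (22.9-fold) and 23 against 1. P4hb, a protein disulfide isomerase gene, had 56 against 7 (6.60-fold). Serpinh1, a collagen chaperone gene, had 38 against 0, P4ha1 60 against 0 in an upstream region, and Pomt2, a glycosyltransferase gene that modifies dystroglycan, 39 against 3. Of 6 regulators of primitive endoderm, the cell type best known for laminin secretion in the early embryo, 3 were listed. Gata6 had 59 against 8 (6.08-fold, 2.89 to 14.7), Sox7 87 against 7 (10.3-fold, 4.77 to 26.2) and Sox17 63 against 2 in an intron (26.0-fold, 6.90 to 219). Gata4, Foxa2 and Dab2 were not listed. These 3 also make up the listed extraembryonic endoderm markers, and their part in the laminin values was not tested.

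**Figure D5:**
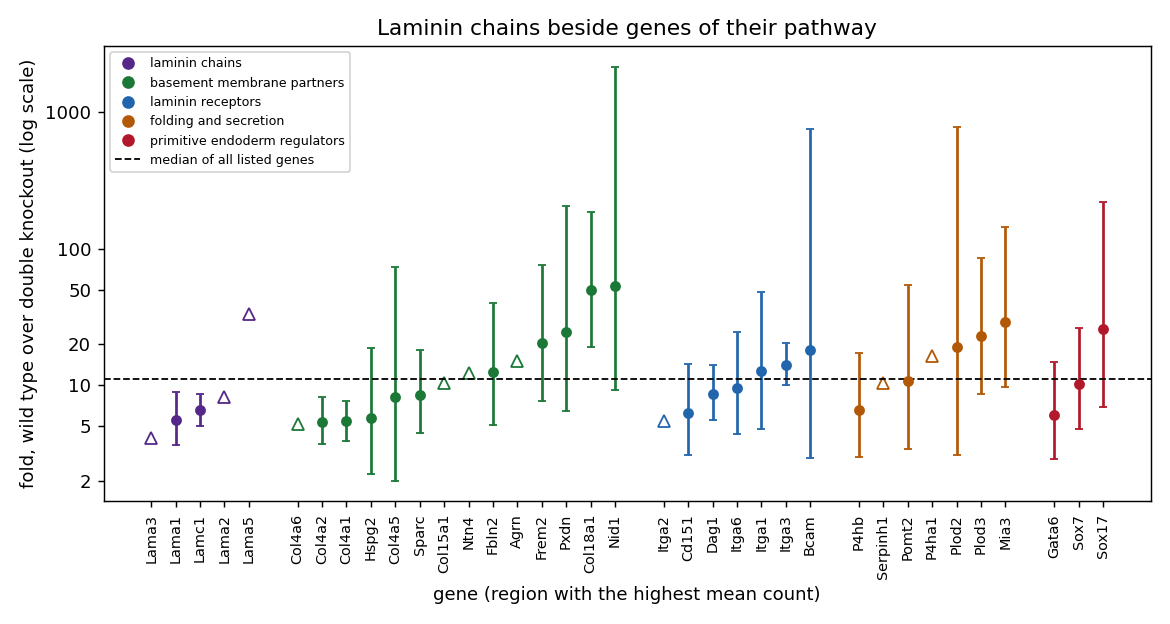
Fold of wild type over double knockout (y axis, log scale) for each listed gene (x axis), read from its region of highest mean count, grouped by list and ordered by fold within it. Circles have exact 95% intervals, open triangles are lower bounds at a double-knockout count of 0, and the dashed line is the median of all listed genes (11.1). Lama1, Lamc1, Col4a1 and Col4a2 lie between 5.40 and 6.53, while Nid1 and Col18a1 are near 50.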

How the data were processed

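The authors deposited 1 table of regions with gene annotation. Per the submitters' processing notes, Bowtie2, DESeq and build mm9 were used, without stated roles. How peaks were called, and what put a region in the table, is not given in the sources used here. The deposited counts are whole reads per region and genotype, and the headers do not state whether they were normalized. Whether they come from the antibody libraries alone, or with input subtracted, cannot be told from the values. The deposited ratio equals 0.825 times wild-type reads divided by double-knockout reads. The deposited signal, read density, is the wild-type count per base. Coordinates are as deposited, and all 30 laminin regions lay inside their gene in RefSeq's GRCm38.p6 table, so they match GRCm38 rather than mm9.

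The 7562 rows were reduced to 6697 distinct regions. Python 3.11.15 with pandas 2.3.3 and scipy 1.17.1 gave exact Poisson intervals for counts, Clopper-Pearson intervals for ratios and shares, and conditional exact intervals for ratios of folds. Reads made by PCR are not independent molecules. The interval functions were tested on simulated data. Library totals are unknown, and sums over listed regions are not depth. The laminin genes and every listed gene of the pathway lists were named, with the 3 genes most like Lamc1 and Lama1. The members and lists were chosen with earlier results of these data known. Some genes that the rules take, and the position of the Lama3 region, are not reported here.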

Additional observations from a re-analysis of the deposited data

How the results depend on the processing

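No paired analysis was possible because each group had 1 library, and no library could be left out. Values are log2 of double knockout over wild type. Of 81 alternatives, 69 moved them by less than the wider side of the counting interval of the summed reads, also where the value was a median. The 81 include leaving out each region of Lamc1 and Lama1 in turn, and none of those runs moved a value further. For Lama2, Lama3 and Lama5 together that interval was wide, with 3 double-knockout reads, so their values could hardly exceed it. Without the authors' constant the laminin region median (-3.19) was -3.46 and the Lamc1 sum (-2.97) was -3.25. The deepest region alone gave -2.70 for both. The laminin median was -2.92 with a pseudocount of 2. The basement membrane median (-4.24) was -3.43 with a pseudocount of 2 and -4.56 with the median over each gene's regions. That of receptors (-3.52) was -2.995 with a pseudocount of 2, -3.16 at 30 or more wild-type reads and in exonic regions only, and -4.35 with the median over regions. That of primitive endoderm regulators (-3.27) was then -4.39. The cause was not tested. Leaving out each region in turn, chosen after seeing the data, gave -3.08 to -2.84 for Lamc1 and -2.97 to -2.70 for Lama1. With the floor at 3.69 reads, 10 regions in place of 12 were at least 10-fold lower, as regions 2 and 4 of Lamc1 moved to 9.61-fold and 8.50-fold, and without the constant 16 were. The floor does not enter sums with double-knockout reads. A region at 0 double-knockout reads with few wild-type reads cannot show a large fold at this depth.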

Other observations

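In Lamc1 the double-knockout reads were unevenly spread from 5' to 3'. Of the first 4 regions 3 had no double-knockout read, and the 4 together had 238 reads against 14 (14.0-fold, 8.19 to 26.0). The last 14 regions had 2522 against 276 (7.54-fold, 6.65 to 8.56), with 1 at 0, and the ratio of the folds was 1.86 (1.07 to 3.50). The split was chosen after the values were seen, and the first pair of regions alone did not differ from the last 14 beyond counting error (ratio 1.09, 0.615 to 2.07).

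For basement membrane genes with several regions, the deepest region was set against the others. Col18a1 was 49.7-fold lower in its deepest region (241 against 4), while its 11 regions together had 1096 against 45 (20.1-fold). The ratio of that region's fold to the fold of the other regions was 2.89, with a wide interval whose lower end is near 1 (1.03 to 11.2). For Col4a1, with 957 against 134 over 8 regions (5.89-fold), the same ratio was 0.889 (0.595 to 1.34). Both genes were picked after their values were seen. Agrn, with 145 against 2 over 3 regions (59.8-fold), and Hspg2, with 80 against 11 over 3 regions (5.998-fold), are both basement membrane proteoglycan genes, and the difference between them was not tested.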
